A study of Mus musculus with 10 samples.

Results

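The 9 genes described here encode the enzymes that write and erase DNA methylation and 3 proteins that direct or protect it. They are Dnmt1, Uhrf1, Dnmt3a, Dnmt3b, Dnmt3l, Tet1, Tet2, Tet3 and Zfp57, chosen by name among the 55487 genes of the count table, and all 9 passed the filter on low counts that left 18956 genes for testing. Their RNA was measured by RNA-seq in 10 whole ovaries, 1 library per ovary, from mice of C57BL/6J background. The 4 Control ovaries came from mice aged 8 weeks, and the 3 Aged and 3 Aged+CF ovaries came from mice aged 11 months by the labels, while the study's methods give a slightly lower age. Aged+CF mice received CEFFE, a cell-free liquid extract of fat tissue, as 200 μL at 3 μg protein per μL into the tail vein every 2 days for 2 weeks, and Control and Aged mice received saline instead. All 3 groups were given 10 IU of PMSG, a gonadotropin that drives follicle growth, 48 h before the ovaries were taken. The Aged group was compared with Control to measure the difference with age, and Aged+CF was compared with Aged to measure the difference with treatment.

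Methylation of cytosines in CpG pairs is copied onto the new DNA strand after replication by DNMT1, which is brought there by UHRF1. New methylation is laid down by DNMT3A and DNMT3B, and in growing oocytes DNMT3L helps DNMT3A to set the maternal imprints. The TET enzymes oxidize methylated cytosine as a step towards its removal, and ZFP57 binds methylated imprinting regions and keeps them methylated in the early embryo.

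Between 15761789 and 21318254 reads were counted on genes per ovary. Levels are given as CPM, read counts scaled to a common library size by edgeR's TMM method, as mean ± SD over the ovaries of a group. Values by ovary are listed in the order 31, 32, 33 and 34 for Control, 31, 33 and 34 for Aged, and 30, 32 and 34 for Aged+CF. A gene was called where its fold change reached 1.5 with an edgeR quasi-likelihood p under 0.05, either adjusted by the Benjamini-Hochberg method over all 18956 genes or unadjusted. The study used both forms of p, so both are given. The p-values set the difference between 2 groups against the spread between ovaries within groups. That spread was estimated over all 3 groups together, so the third group also affects each p-value. Aged ovary 34 stood apart from the other ovaries in its marker genes. Its oocyte markers summed to 17.2 CPM (120.6 and 140.5 CPM in the other Aged ovaries) and its lymphoid and plasma cell markers to 199.7 CPM (13.4 and 29.7 CPM), so values without it are given beside results that rest on the Aged group.

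In Aged compared with Control, 5 of the 9 genes were lower at adjusted p (Dnmt1, Uhrf1, Dnmt3b, Dnmt3l and Tet1), against 6.06% of all tested genes, and none was higher, against 5% of all tested genes. At unadjusted p, Dnmt3a and Zfp57 were added, which made 7 of 9 lower, against 9.44% of all tested genes. Without Aged ovary 34, Dnmt1, Uhrf1, Dnmt3b and Dnmt3l were lower at adjusted p, 4 of 9 against 7.54% of all tested genes. The ovaries of both groups did not overlap for 7 of the 9, lower in Aged, against 15.6% of all tested genes, and for 7 of 9 without Aged ovary 34, against 24.2%. The 9 genes had a median log2 fold change of -0.67 (all tested genes, -0.00053).

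**Figure D1:**
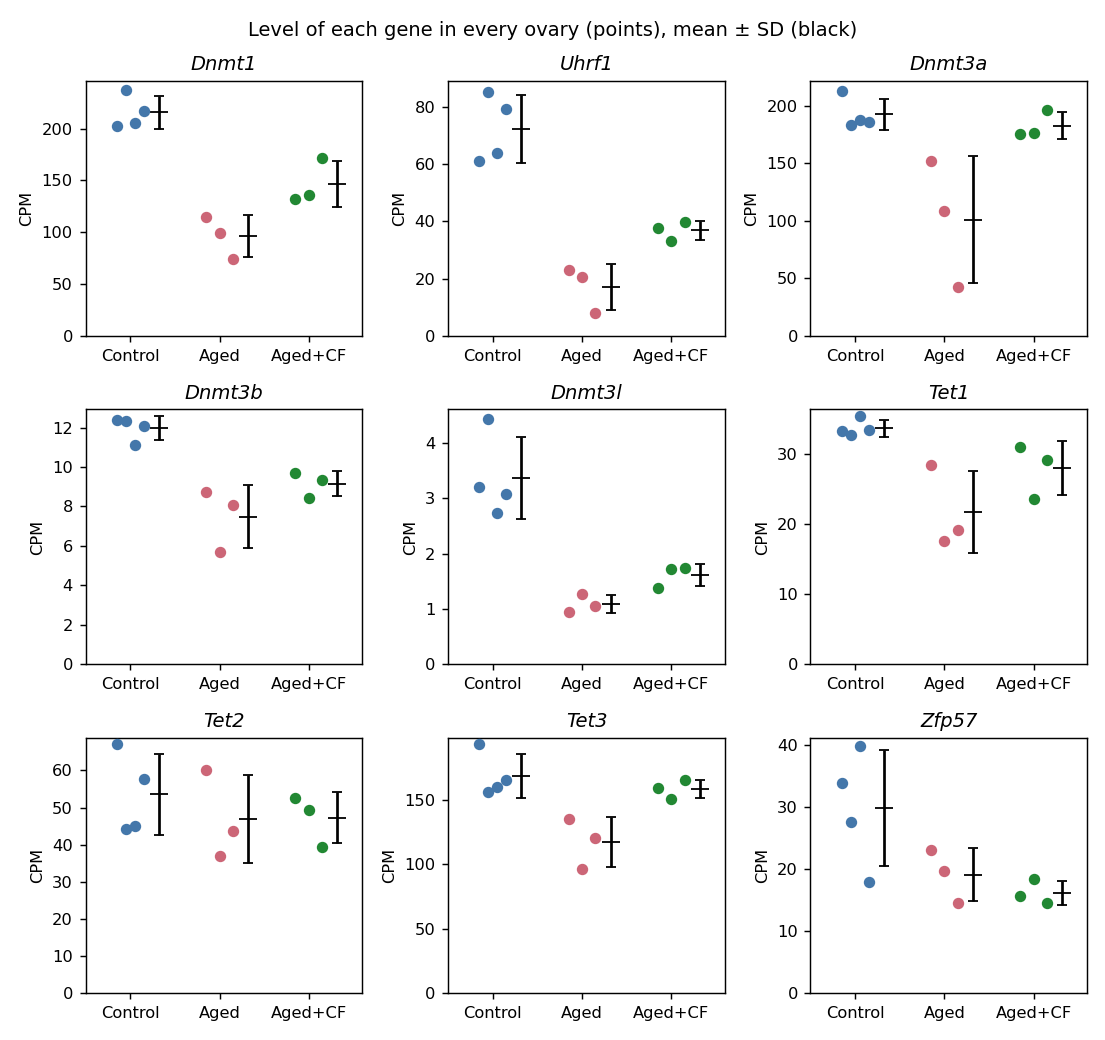
Level of each of the 9 genes in CPM (vertical axes, from 0) in every ovary of Control, Aged and Aged+CF (colored points), with the group mean ± SD in black. For Uhrf1 the Aged ovaries lie between 8.05 and 22.9 CPM, the Aged+CF ovaries between 33.1 and 39.7 CPM and the Control ovaries between 61.0 and 85.2 CPM, while the 3 groups overlap for Tet2.

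Both genes of maintenance methylation fell in Aged, and Uhrf1 had the largest difference of the 9 genes. Dnmt1 (chr9:20907209-20959888, minus strand, GRCm38), the copying enzyme, was at 202, 238, 205 and 217 CPM in Control, at 114, 99.7 and 74.2 CPM in Aged, and at 132, 136 and 172 CPM in Aged+CF. All Aged ovaries were below all Aged+CF ovaries, and these were below all Control ovaries. Dnmt1 fell from 215.6 ± 16.1 CPM (n = 4) to 96.0 ± 20.3 CPM (n = 3) between Control and Aged, a log2 fold change of -1.17 (SE 0.156, edgeR adjusted p = 0.00496). Without Aged ovary 34 the log2 fold change was -0.97 (edgeR adjusted p = 0.00265). In Aged+CF, Dnmt1 was at 146.6 ± 22.1 CPM (n = 3), 0.61 above Aged on the log2 scale (SE 0.163), called at unadjusted p and not after adjustment (edgeR adjusted p = 0.169). This difference was 0.44 without Aged ovary 34 (edgeR adjusted p = 0.0940), a fold change under 1.5, and was not called.

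Uhrf1 (chr17:56303321-56323486, plus strand, GRCm38), whose protein recognizes hemimethylated DNA behind the replication fork, was at 61.0, 85.2, 63.9 and 79.2 CPM in Control, at 22.9, 20.5 and 8.05 CPM in Aged, and at 37.8, 33.1 and 39.7 CPM in Aged+CF. The 3 groups formed separate ranges in the same order as for Dnmt1, and Aged ovary 34 was the lowest of all. Uhrf1 fell from 72.3 ± 11.7 CPM (n = 4) in Control to 17.2 ± 7.98 CPM (n = 3) in Aged, which is 23.7% of Control (log2 fold change -2.08, SE 0.310, edgeR adjusted p = 0.00547). Without Aged ovary 34 the log2 fold change was -1.70 (edgeR adjusted p = 0.00135). Aged+CF ovaries had 36.9 ± 3.38 CPM (n = 3), 215% of Aged (log2 fold change 1.11, SE 0.315, called at unadjusted p only, edgeR adjusted p = 0.178) and 51.0% of Control (log2 fold change -0.97, SE 0.294, called at unadjusted p only, edgeR adjusted p = 0.193). Without Aged ovary 34, Uhrf1 passed at adjusted p in Aged+CF compared with Aged (log2 fold change 0.75, edgeR adjusted p = 0.0435; 0.713% of all tested genes were higher) and in Aged+CF compared with Control (log2 fold change -0.95, edgeR adjusted p = 0.0147; 0.869% of all tested genes were lower).

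The promoters of Dnmt1 and Uhrf1 are shown first. The RefSeq table of promoters (GRCm38.p6) holds 18 windows for the 9 genes, and the 250 bases before each start were searched on both strands for the E2F-like letters TTTCGCGC, TTTCCCGC and TTTGGCGC and for CCAAT. Among the 18 windows, TTTCGCGC was found in 1 window of Uhrf1 and 1 window of Dnmt1 and in no window of the other 7 genes. It was found in 0.256% of the 32851 windows of all genes, and any of the E2F-like forms searched in 1.53%. Both windows with a match are rich in CpG (percentiles 94.1 for Uhrf1 and 90.4 for Dnmt1), and the matched letters themselves hold CpG. Neither TTTCCCGC (0.895% of all windows) nor TTTGGCGC (0.417%) was found in any of the 18, and CCAAT was found in 33.8% of all windows. These matches are descriptions of letters, no binding was measured, and a relation of the letters to the levels was not tested. The 26 bases around both TTTCGCGC matches are shown on each gene's own strand, with the match in capitals (read on the opposite strand in Dnmt1). That of Uhrf1 lies at chr17:56304119-56304144 and that of Dnmt1 at chr9:20952826-20952851. The Dnmt1 site lies inside an annotated exon of Dnmt1, as do 166 of the 250 bases of its window. The window with the Uhrf1 site holds 0 annotated exon bases of Uhrf1.
Uhrf1 site: cgagtcgggTTTCGCGCgcccaggcg
Dnmt1 site: tttccgcgcGCGCGAAAaagccgggg

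The whole 250 bases before the second start of Uhrf1 (chr17:56304063-56304312, plus strand) hold 30 CpG and 2 CCAAT, with the E2F-like letters and both CCAAT in capitals. The median window of all genes holds 6 CpG (quartiles 2 and 16). The window before the most upstream start of Dnmt1 (chr9:20959889-20960138, minus strand) holds only 2 CpG and 4 CCAAT (capitals, 2 of them on the opposite strand), while the window with the site above, before another start, has 26 CpG. Gene-level counts do not say from which start the reads came.
Uhrf1, second start: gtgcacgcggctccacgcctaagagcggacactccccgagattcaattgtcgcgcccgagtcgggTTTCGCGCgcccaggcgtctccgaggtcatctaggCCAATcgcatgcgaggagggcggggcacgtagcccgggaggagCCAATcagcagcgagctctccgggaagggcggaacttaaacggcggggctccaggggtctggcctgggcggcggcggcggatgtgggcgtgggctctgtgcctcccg
Dnmt1, first start: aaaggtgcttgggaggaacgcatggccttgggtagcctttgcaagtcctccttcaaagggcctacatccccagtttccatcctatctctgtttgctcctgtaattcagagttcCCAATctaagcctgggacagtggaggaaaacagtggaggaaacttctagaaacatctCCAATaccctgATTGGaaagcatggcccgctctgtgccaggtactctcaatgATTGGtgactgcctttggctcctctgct

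Among the genes of de novo methylation, the 2 enzymes and their cofactor differed in size of change and in the spread between Aged ovaries. Dnmt3a (chr12:3806007-3914443, plus strand, GRCm38), which sets most methylation of the oocyte genome, was at 213, 183, 187 and 186 CPM in Control, at 152, 109 and 42.4 CPM in Aged, and at 175, 176 and 196 CPM in Aged+CF. The Aged ovaries were spread over a wide range, all of it below the other groups, and Control and Aged+CF overlapped. The mean was 192.3 ± 13.7 CPM (n = 4) in Control and 101.1 ± 55.2 CPM (n = 3) in Aged, with a log2 fold change of -0.93 (SE 0.325, called at unadjusted p only, edgeR adjusted p = 0.0801). In Aged without ovary 34, the log2 fold change was -0.52 (edgeR adjusted p = 0.0269, a fold change under 1.5). Aged+CF ovaries had 182.6 ± 11.98 CPM (n = 3), 0.85 above Aged on the log2 scale (SE 0.342, called at unadjusted p only, edgeR adjusted p = 0.265), and 0.47 above it without Aged ovary 34 (edgeR adjusted p = 0.0967), where it was not called. The difference of Aged+CF from Control was -0.075 (SE 0.317) with a 95% interval from -0.78 to 0.63. The fit shares its estimate of spread over all 3 groups, so the widely spread Aged ovaries enter this interval too. Without Aged ovary 34 the difference was -0.054 with an SE of 0.1205.

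Dnmt3b (chr2:153649450-153687730, plus strand, GRCm38), the second de novo enzyme, was at 12.4, 12.3, 11.1 and 12.1 CPM in Control, at 8.71, 5.71 and 8.05 CPM in Aged, and at 9.69, 8.44 and 9.33 CPM in Aged+CF. Every Control ovary was above every ovary of the older mice, and Aged and Aged+CF overlapped. Dnmt3b fell from 11.98 ± 0.595 CPM (n = 4) to 7.49 ± 1.57 CPM (n = 3) in Aged (log2 fold change -0.67, SE 0.162, edgeR adjusted p = 0.0234), and without Aged ovary 34 the log2 fold change was -0.69 (edgeR adjusted p = 0.0243). Between Aged+CF and Aged the log2 fold change was 0.29 with a 95% interval from -0.095 to 0.67, and between Aged+CF and Control it was -0.39 with a 95% interval from -0.74 to -0.031.

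Dnmt3l (chr10:78041947-78063622, plus strand, GRCm38), which lacks enzyme activity of its own, was the lowest of the 9 genes and rests on few reads, 54 to 71 per Control ovary, 16 to 19 per Aged ovary and 24 to 37 per Aged+CF ovary. It was at 3.21, 4.43, 2.74 and 3.07 CPM in Control, at 0.954, 1.27 and 1.05 CPM in Aged, and at 1.38, 1.72 and 1.73 CPM in Aged+CF. The 3 groups did not overlap, and Aged ovary 34 was not the lowest here. Dnmt3l fell to 32.5% of Control in Aged (log2 fold change -1.62, SE 0.258, edgeR adjusted p = 0.00657), and the log2 fold change without Aged ovary 34 was -1.55 (edgeR adjusted p = 0.00781). Aged+CF compared with Aged gave 0.57 (SE 0.272, edgeR adjusted p = 0.335), and 0.52 without Aged ovary 34 (edgeR adjusted p = 0.333). Compared with Control, Aged+CF was at 48.1% (log2 fold change -1.06, SE 0.247, called at unadjusted p only, edgeR adjusted p = 0.124). Exons of Dnmt3l share 67 bases, 2.24% of their length, with Aire on the opposite strand, and those of Dnmt3a share 133 bases (0.799%) with the antisense Dnmt3aos, so that reads in these bases cannot be assigned where strand was not used.

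The promoters of Dnmt3l and of Tet2, the gene with the smallest difference in Aged, are shown as well. The window before the second start of Dnmt3l (chr10:78049592-78049841, plus strand, GRCm38.p6) holds 4 CpG, and that of Tet2 (chr3:133544391-133544640, minus strand) holds 51 CpG, which is at the 99.9 percentile of all windows. Neither holds CCAAT or an E2F-like match, so no letters are in capitals.
Dnmt3l, second start: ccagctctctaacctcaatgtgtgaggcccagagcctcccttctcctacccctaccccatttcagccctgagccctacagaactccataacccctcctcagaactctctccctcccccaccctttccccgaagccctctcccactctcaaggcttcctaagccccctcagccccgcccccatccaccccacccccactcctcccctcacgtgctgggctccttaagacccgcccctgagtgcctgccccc
Tet2: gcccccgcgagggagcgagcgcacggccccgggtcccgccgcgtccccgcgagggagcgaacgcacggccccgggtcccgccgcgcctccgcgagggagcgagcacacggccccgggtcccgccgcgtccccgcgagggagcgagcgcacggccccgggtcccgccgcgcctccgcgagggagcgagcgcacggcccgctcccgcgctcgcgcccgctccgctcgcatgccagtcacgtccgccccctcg

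The 3 TET genes were unlike each other. Tet1 (chr10:62804570-62908996, minus strand, GRCm38), an oxidizing enzyme active in germ cells, was at 33.3, 32.7, 35.4 and 33.4 CPM in Control, at 28.4, 17.6 and 19.2 CPM in Aged, and at 31.1, 23.7 and 29.2 CPM in Aged+CF. The Control ovaries lay close together above all others, and Aged ovary 31 was within the range of Aged+CF. Tet1 fell from 33.7 ± 1.19 CPM (n = 4) to 21.7 ± 5.84 CPM (n = 3) in Aged (log2 fold change -0.63, SE 0.169, edgeR adjusted p = 0.0334). This fold was just past 1.5, and without Aged ovary 34 the gene was not called (log2 fold change -0.51, edgeR adjusted p = 0.0776). Aged+CF compared with Aged gave 0.36 with a 95% interval from -0.034 to 0.76, and Aged+CF against Control gave -0.27 with a 95% interval from -0.64 to 0.10.

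Tet2 (chr3:133463679-133545139, minus strand, GRCm38), best known as an enzyme of blood cells, was at 67.2, 44.3, 45.1 and 57.8 CPM in Control, at 60.01, 37.0 and 43.8 CPM in Aged, and at 52.7, 49.5 and 39.5 CPM in Aged+CF. The groups overlapped in every comparison. The log2 fold change of Aged from Control was -0.19 with a 95% interval from -0.64 to 0.26, and that of Aged+CF from Aged was 0.0071 with a 95% interval from -0.47 to 0.48. Differences within these intervals could not be resolved with 3 or 4 ovaries per group.

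Tet3 (chr6:83362373-83459084, minus strand, GRCm38), the oxidizing enzyme of the oocyte and zygote, was at 193, 156, 160 and 165 CPM in Control, at 135, 96.6 and 121 CPM in Aged, and at 159, 151 and 165 CPM in Aged+CF. Aged ovaries were below both other groups, which overlapped. Tet3 was at 117.4 ± 19.4 CPM (n = 3) in Aged and at 168.4 ± 16.9 CPM (n = 4) in Control, and its log2 fold change of -0.52 (SE 0.124) had an edgeR adjusted p of 0.0228 but a fold change of 1.43, under the limit. Its log2 fold change without Aged ovary 34 was -0.50 (edgeR adjusted p = 0.0357). Aged+CF ovaries had 158.4 ± 7.13 CPM (n = 3), a log2 fold change of 0.43 from Aged (SE 0.132, edgeR adjusted p = 0.192, fold change 1.35). From Control, Aged+CF differed by -0.088 with a 95% interval from -0.36 to 0.19.

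Zfp57 (chr17:37001163-37010635, plus strand, GRCm38), the zinc finger protein that protects imprints, was at 33.97, 27.6, 39.9 and 18.0 CPM in Control, at 23.0, 19.8 and 14.6 CPM in Aged, and at 15.6, 18.4 and 14.6 CPM in Aged+CF. Control ovary 34 lay within the range of the older mice, and Aged and Aged+CF overlapped. The log2 fold change of Aged from Control was -0.64 (SE 0.258, called at unadjusted p only, edgeR adjusted p = 0.119), and that without Aged ovary 34 was -0.45 (edgeR adjusted p = 0.279). Zfp57 was the only one of the 9 genes with a lower mean in Aged+CF than in Aged (log2 fold change -0.24, 95% interval from -0.85 to 0.37). Against Control, Aged+CF was at 54.2% (log2 fold change -0.88, SE 0.260, called at unadjusted p only, edgeR adjusted p = 0.186).

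In Aged+CF compared with Aged, none of the 9 genes was called at adjusted p by edgeR (0.00528% of all tested genes in either direction). At unadjusted p, 3 of 9 were higher, Dnmt1, Uhrf1 and Dnmt3a, against 3.91% of all tested genes. Without Aged ovary 34, only Uhrf1 of these was higher at unadjusted p, 1 of 9 against 5.67% of all tested genes. By the Wald test of DESeq2, Dnmt1 (log2 fold change 0.60, adjusted p = 0.0238) and Uhrf1 (1.10, adjusted p = 0.0256) passed, which is 2 of 9 against 1.11% of all tested genes. The ovaries did not overlap for 5 of 9 (Dnmt1, Uhrf1, Dnmt3a, Dnmt3l and Tet3), higher in Aged+CF, against 10.2% of all tested genes, and for 5 of 9 without Aged ovary 34, against 20.1%. The median log2 fold change was 0.43, and that of all tested genes was -0.021. Since the same 3 Aged ovaries enter this comparison and that of Aged with Control, their values enter both.

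In Aged+CF compared with Control, edgeR again called none of the 9 at adjusted p (0.179% of all tested genes in either direction), and DESeq2 called 2, Dnmt3l (log2 fold change -1.03, adjusted p = 0.0192) and Uhrf1 (-0.95, adjusted p = 0.0479), against 1.15% of all tested genes lower. At unadjusted p, 3 of 9 were lower, Uhrf1, Dnmt3l and Zfp57, against 4.36% of all tested genes. The ranges did not overlap for 5 of 9 (Dnmt1, Uhrf1, Dnmt3b, Dnmt3l and Tet1), lower in Aged+CF, against 12.2% of all tested genes. Dnmt1 had a log2 fold change of -0.56 (SE 0.153, edgeR adjusted p = 0.164) with a fold change of 1.47, under the limit. Aged ovary 34 is in neither group but enters the shared spread. Without it, edgeR called Uhrf1 at adjusted p (log2 fold change -0.95, edgeR adjusted p = 0.0147), against 0.869% of all tested genes lower.

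**Figure D2:**
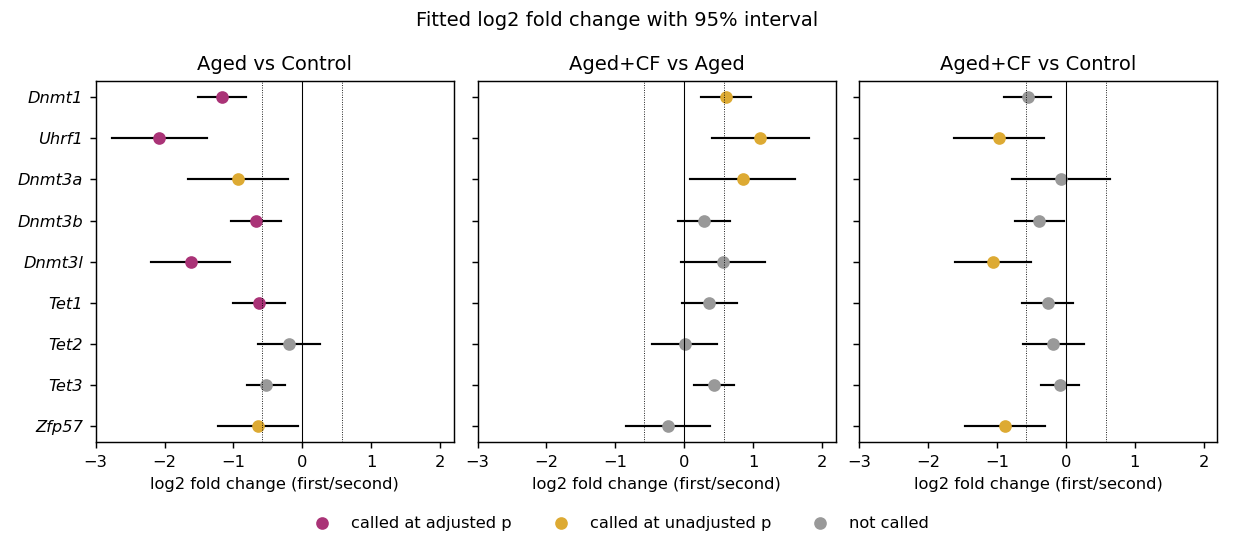
Fitted log2 fold change of each gene with its 95% interval in the 3 comparisons (horizontal axes; dotted lines mark a fold change of 1.5), colored by call. The intervals of Dnmt1, Uhrf1 and Dnmt3l in Aged vs Control end at -0.82, -1.39 and -1.05, all beyond the dotted line, and in Aged+CF vs Aged no point is called at adjusted p.

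Divided by the length of the exons, the order of the genes was similar in the 3 groups except for Uhrf1. In Control, Dnmt1 was highest at 29.2 ± 2.18 CPM per kb (n = 4), followed by Uhrf1 at 16.98 ± 2.76, Dnmt3a at 11.6 ± 0.825, Tet3 at 10.1 ± 1.01, Zfp57 at 7.88 ± 2.48, Tet2 at 3.18 ± 0.650, Dnmt3b at 2.35 ± 0.117, Tet1 at 2.18 ± 0.0767 and Dnmt3l at 1.13 ± 0.247 CPM per kb. The ranges of neighbours overlapped between Dnmt3a and Tet3, between Tet3 and Zfp57 and between Dnmt3b and Tet1. In Aged, Uhrf1 was in place 5 at 4.03 ± 1.87 CPM per kb (n = 3), and its range overlapped those of Zfp57 above and Tet2 below it. In Aged+CF it was in place 4 at 8.66 ± 0.794 CPM per kb (n = 3), overlapping with Tet3. Levels per length depend on the gene model, and the lengths behind the deposited FPKM were 1.14 to 2.41 times those used here. With those lengths, a choice made after the data were seen, Tet3 was above Dnmt3a in Control and Aged+CF, Uhrf1 was in place 4 in Aged and place 3 in Aged+CF, and Dnmt1 stayed highest and Dnmt3l lowest in all groups.

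**Figure D3:**
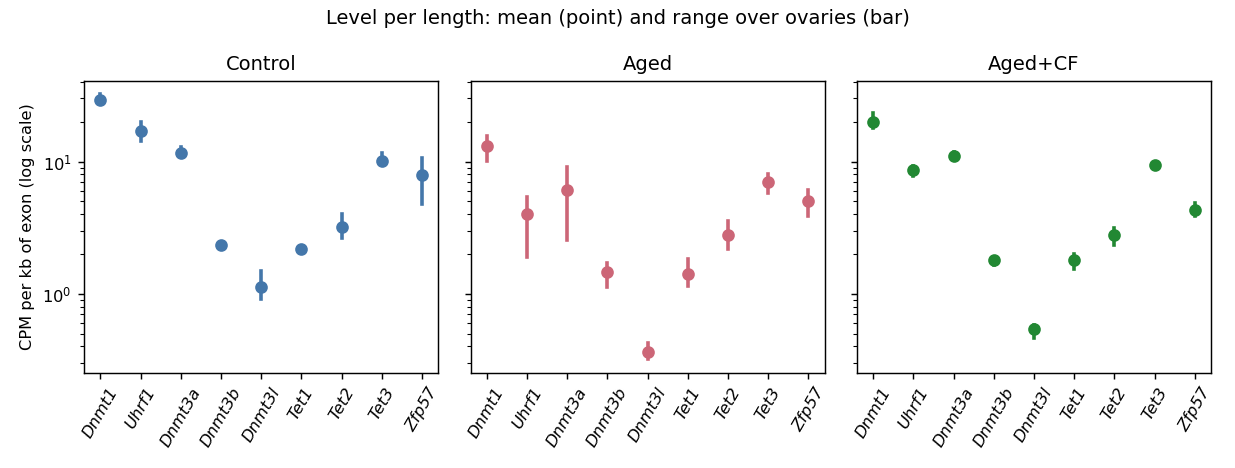
Level per length of the 9 genes (vertical axes, CPM per kb of exon, log scale) in Control, Aged and Aged+CF, with the mean as a point and the range over ovaries as a bar. Uhrf1 stands at 16.98 CPM per kb in Control, at 4.03 in Aged and at 8.66 in Aged+CF, while Tet2 stays between 2.78 and 3.18.

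Ratios of the reads of 2 genes within an ovary do not depend on the scaling of libraries, and 4 ratios were compared in 3 comparisons. For every 100 reads of Dnmt1, Control ovaries had 30.2 to 36.5 reads of Uhrf1, Aged ovaries 10.9 to 20.6 and Aged+CF ovaries 23.1 to 28.7. The groups did not overlap. The mean log2 ratio was 1.01 lower in Aged than in Control (exact permutation p = 0.0286, two-sided, adjusted over 12 tests p = 0.114) and 0.40 lower in Aged+CF than in Control (exact permutation p = 0.0286, adjusted p = 0.114). Between Aged+CF and Aged it differed by 0.61 (exact permutation p = 0.1, adjusted p = 0.15). These are the smallest p-values that 4 against 3 and 3 against 3 ovaries allow. The difference of Aged from Control was -0.71 without Aged ovary 34, and that of Aged+CF from Aged was 0.31.

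For every 100 reads of Dnmt3a, there were 1.46 to 2.41 reads of Dnmt3l in Control, 0.628, 1.17 and 2.47 in Aged ovaries 31, 33 and 34, and 0.786 to 0.977 in Aged+CF. The Aged ovaries thus spread over more than the range of both other groups. The mean log2 ratio was 0.96 lower in Aged+CF than in Control (exact permutation p = 0.0286, adjusted p = 0.114). The ratios of Tet3 and of Tet1 to Tet2 had exact permutation p-values between 0.0571 and 0.686 in the 3 comparisons. The largest of their differences was that of Tet1 to Tet2 between Aged and Control, -0.47 on the log2 scale.

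Whole ovaries mix cell types, and for every gene fewer cells of a type and less RNA per cell cannot be told apart in these data. Markers of oocytes and of cell division were lower in Aged, as were most of the 9 genes, and those of several other cell types were higher. Their part in the results was not tested beyond the fits with marker scores given next. Of all tested genes, 6.06% were lower and 5% higher in Aged than in Control at adjusted p, and 9.44% were lower at unadjusted p. All 16 oocyte markers were detected, and 13 were lower in Aged than in Control at adjusted p by edgeR, and their summed level was 486 to 670 CPM in Control, 17.2 to 141 CPM in Aged and 184 to 291 CPM in Aged+CF, and 2 of them were at 0 in at least 1 Aged ovary. Of 20 genes of cell division, 16 were lower in Aged at adjusted p, with sums of 999 to 1374 CPM in Control, 190 to 519 CPM in Aged and 573 to 805 CPM in Aged+CF. Granulosa cell markers were lower at adjusted p in 0 of 10 by edgeR (5 of 10 at unadjusted p), and their sums were 5143 to 8179 CPM, 3367 to 4505 CPM and 2966 to 5140 CPM. Of the markers higher in Aged at adjusted p there were 5 of 7 for theca and steroidogenic cells, 6 of 8 for lymphoid and plasma cells, 3 of 8 for macrophages and 5 of 7 for endothelial cells, and 0 of 5 each for adipocytes and oviduct. Of the 7 theca and steroidogenic markers, 1 went the other way and was lower in Aged at unadjusted p (log2 fold change -1.385). The oviduct markers summed to 387.5 CPM in Control ovary 33 and 300.5 CPM in Aged ovary 34 and to at most 32.5 CPM in the other ovaries.

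With the oocyte marker score of each ovary in the fit, none of the 9 genes was called at adjusted p in Aged compared with Control by edgeR, against 0.0317% of all tested genes in either direction, and 2 were called at unadjusted p, against 21.3%. Few genes of any kind were called at adjusted p in this fit, so the counts say nothing particular to the 9 genes. Uhrf1 was then at -0.50 (edgeR adjusted p = 0.163), Dnmt1 at -0.48 (edgeR adjusted p = 0.172) and Dnmt3a at 0.65, the opposite direction (edgeR adjusted p = 0.193). Dnmt3l stayed at -1.42 (edgeR adjusted p = 0.165), Dnmt3b at -0.74 (edgeR adjusted p = 0.215) and Tet3 at -0.55 (edgeR adjusted p = 0.236). With the score of cell division instead, none of the 9 was called at adjusted p, against 0.659% of all tested genes. At unadjusted p this fit called 5 of the 9, and 4203 of all 18956 tested genes. Uhrf1 was at -0.72 (edgeR adjusted p = 0.0669), Dnmt1 at -0.60 (edgeR adjusted p = 0.0955) and Dnmt3a at 0.29 (edgeR adjusted p = 0.647), and Dnmt3l stayed at -1.36 (edgeR adjusted p = 0.120). The scores differ between the groups themselves, so that group and score cannot be told apart in these fits.

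**Figure D4:**
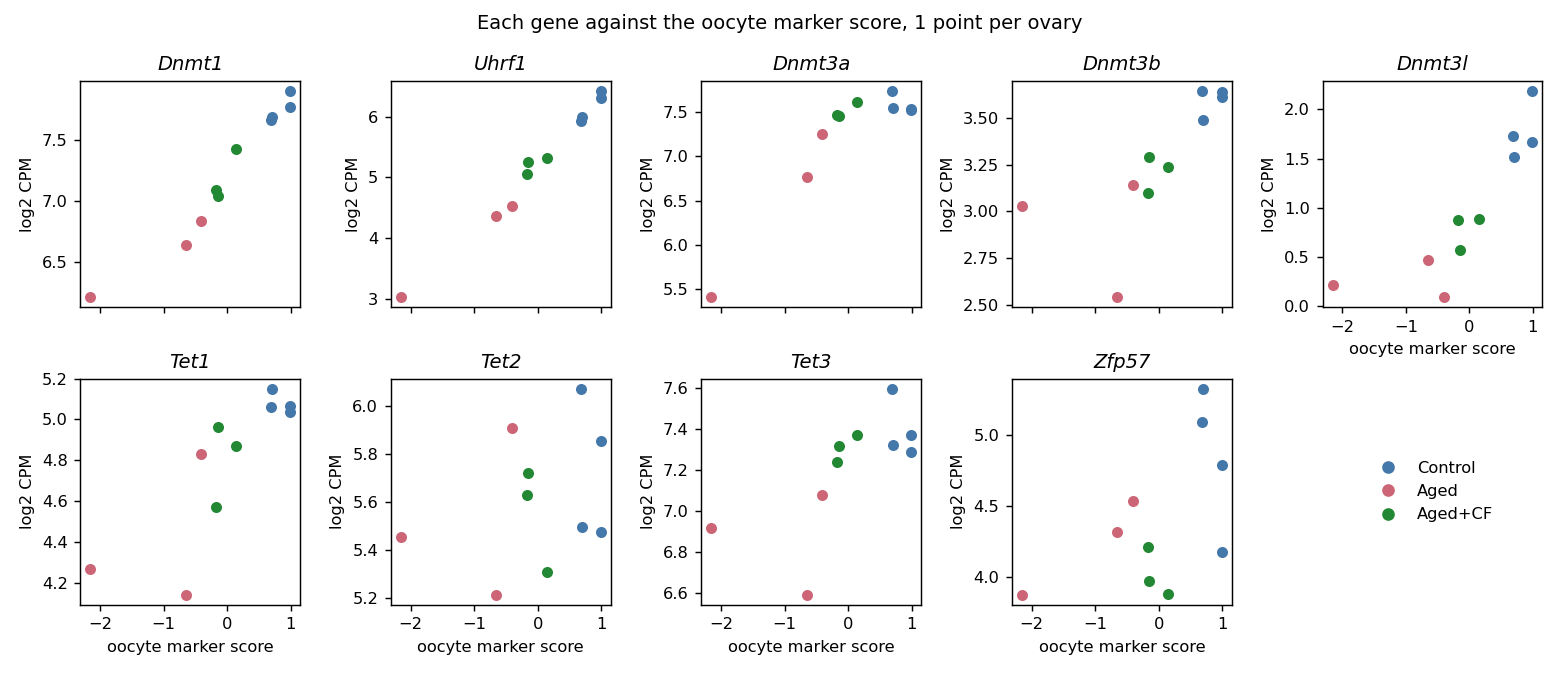
Level of each gene (vertical axes, log2 CPM) against the oocyte marker score (horizontal axes, mean standardized log2 CPM of 16 oocyte markers), 1 point per ovary, colored by group. Aged ovary 34, at a score of -2.15, has the lowest Dnmt1, Uhrf1, Dnmt3a and Zfp57 but not the lowest Dnmt3b, Dnmt3l, Tet1, Tet2 or Tet3. Its Zfp57 is at 3.875 log2 CPM, next to 3.877 in Aged+CF ovary 34.

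The genes that work with these enzymes were counted in 6 lists of 48 genes in all, each of which was tested. In Aged compared with Control, 6 of the 48 were lower at adjusted p against 6.06% of all tested genes, and 1 was higher against 5% of all tested genes. The median log2 fold change was -0.28 for the 48 and -0.00053 for all tested genes. Maintenance methylation partners held 4 of the 6, out of 8 listed, with a median log2 fold change of -0.82. Hells, a chromatin remodeler needed for methylation of repeats, was at 24.4 to 34.7 CPM in Control, 8.05 to 12.9 CPM in Aged and 17.9 to 19.6 CPM in Aged+CF (Aged vs Control log2 fold change -1.497, SE 0.188, edgeR adjusted p = 0.00399). Cdca7l was at 19.1 to 24.8, 7.81 to 8.27 and 10.1 to 15.3 CPM in the same order (Aged vs Control log2 fold change -1.44, SE 0.165, edgeR adjusted p = 0.00358). These 2 genes had separate ranges in all 3 groups, as had Uhrf1. Lig1, the DNA ligase of replication, differed by -1.24 (SE 0.221, edgeR adjusted p = 0.00949), and Cdca7, which recruits the remodeler Hells, by -1.22 (SE 0.220, edgeR adjusted p = 0.00965). All 4 were still called without Aged ovary 34, with log2 fold changes from -1.43 to -0.94.

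Of 12 active demethylation partners, 1 was higher in Aged at adjusted p, against 5% of all tested genes, and 1 was lower, against 6.06%. Gadd45a, a stress response gene, was at 42.6 to 55.1 CPM in Control and at 99.4, 99.8 and 52.2 CPM in Aged (log2 fold change 0.84, SE 0.240, edgeR adjusted p = 0.0415), with Aged ovary 34 inside the Control range. Without that ovary, the log2 fold change of Gadd45a was 1.13 (edgeR adjusted p = 0.00480). Of 4 imprint protection partners, 1 was lower at adjusted p, against 6.06% of all tested genes. This was Dppa3, an oocyte protein that shields methylation in the zygote. It was at 9.99 to 17.6 CPM in Control and at 2.86, 5.01 and 0.221 CPM in Aged (log2 fold change -2.36, SE 0.663, edgeR adjusted p = 0.0393). Its log2 fold change without Aged ovary 34 was -1.77 (edgeR adjusted p = 0.00716). Trim28, the corepressor that ZFP57 recruits, was singled out after its values were seen. It was at 337.6 to 402.2 CPM in Control, 241.4 to 256 CPM in Aged and 288.5 to 315.8 CPM in Aged+CF, 3 separate ranges (Aged vs Control log2 fold change -0.57, edgeR adjusted p = 0.00699, a fold change under 1.5).

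No gene was called at adjusted p by edgeR in Aged compared with Control among 8 readers of methylated CpG, among 7 histone enzymes that guide de novo methylation and among 9 genes of methyl donor synthesis, and their counts at unadjusted p were 0, 0 and 1 (Mat1a, lower), where 9.44% of all tested genes were lower, a share near that of 1 in 9. The median log2 fold changes of these lists were -0.012, -0.35 and -0.31.

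Between Aged+CF and Aged, none of the 48 was called at adjusted p by edgeR (0.00528% of all tested genes in either direction). DESeq2 called 2 of the 48 at adjusted p, against 441 of all 18956 tested genes in either direction. At unadjusted p by edgeR, 4 were higher, against 3.91% of all tested genes. These were Hells (log2 fold change 0.78), Cdca7l (0.71), Lig1 (0.59) and Mat1a, an enzyme that makes the methyl donor (1.19), with edgeR adjusted p-values between 0.161 and 0.260. Of these, Lig1 was no longer called at unadjusted p without Aged ovary 34 (log2 fold change 0.31). Between Aged+CF and Control, none of the 48 was called at adjusted p by edgeR (0.179% of all tested genes in either direction). DESeq2 called 4 of the 48 at adjusted p, against 528 of all 18956 tested genes in either direction. At unadjusted p by edgeR, 5 were lower and 1 was higher, against 4.36% and 3.33% of all tested genes.

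**Figure D5:**
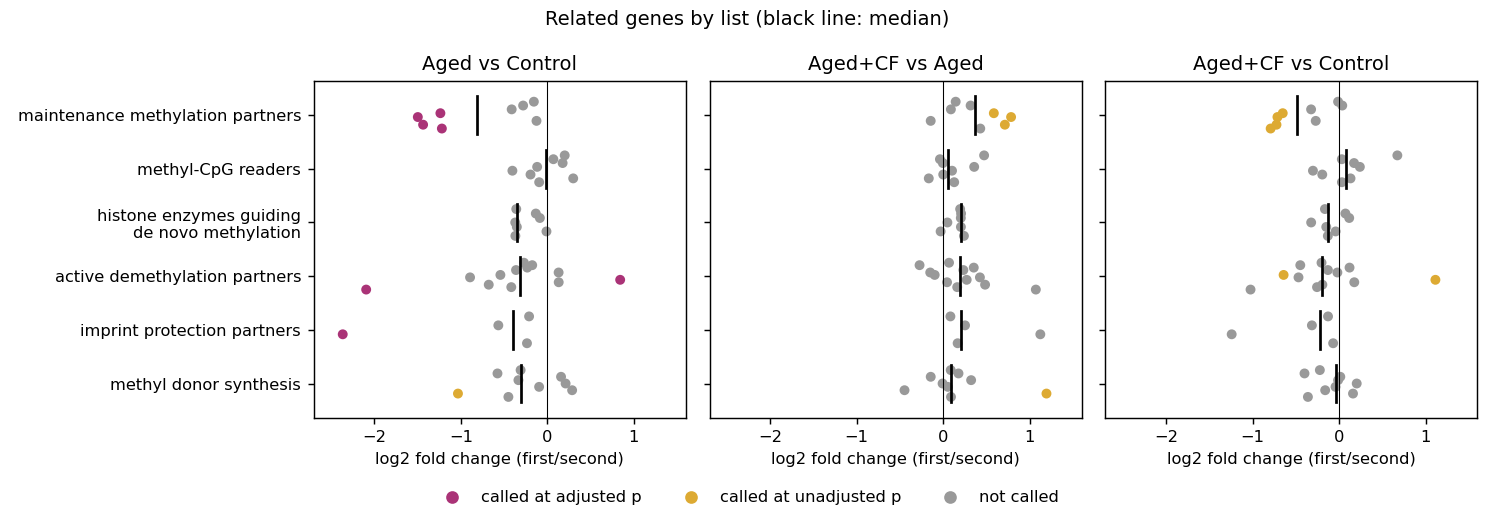
Log2 fold change (horizontal axes) of the 48 related genes by list in the 3 comparisons, 1 point per gene, colored by call, with the median of each list as a black line. In Aged vs Control the maintenance partners have their median at -0.82 with 4 of 8 called at adjusted p, while the median of the methyl-CpG readers is at -0.012 with none called.

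Over the 10 ovaries, Dnmt1 and Uhrf1 had the highest correlation of log2 CPM among the 36 pairs of the 9 genes (Pearson r = 0.98), and Dnmt3l and Tet2 had the lowest (r = 0.186). The 10 ovaries fall into groups that differ in most of these genes and share their libraries, so these values are descriptions. Among 16735 other genes with a mean of at least 1 CPM, those alike to Uhrf1 included Alpk3 (r = 0.993) and Incenp, of the chromosomal passenger complex (r = 0.992). For Dnmt1 the most alike were BC055324 and Ybx2, a germ cell RNA-binding protein (both r = 0.99), and Adgrv1 (r = 0.988). For Tet3 they were Arid2 (r = 0.994), Dicer1 and Cc2d2a (both r = 0.971), and for Dnmt3a Gm10603 (r = 0.982), Tbc1d14 (r = 0.975) and Map1b (r = 0.969). Dnmt3b was most like Cep128 (r = 0.986), Dnmt3l most like Nrap (r = 0.981) and Tet1 most like Kif24 (r = 0.974). The closest genes to Tet2 (Angptl1, r = 0.93) and Zfp57 (D1Ertd622e, r = 0.87) were less alike.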

How the data were processed

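RNA was extracted from 10 whole ovaries (4 Control, 3 Aged, 3 Aged+CF), and each had its own Illumina library. The authors deposited a table of raw read counts and FPKM per gene, and no column of it belongs to any other sample. Per the submitters' processing notes, the tools were TopHat (version not given in the sources used here) and Cufflinks 2.1.1, with the build GRCm38.p4, and the counting tool and its use of strand are not given in the sources used here. The deposited FPKM were used here for gene lengths and to check the counts, and all tests were run on the counts. Between 15761789 and 21318254 reads were counted per ovary, and 18869 of 55487 genes had no count in any ovary.

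The counts were analysed in R 4.3.3 with edgeR 4.0.16. After filterByExpr and TMM scaling, a quasi-likelihood model with a mean per group was fitted to all 10 ovaries, and 3 comparisons were made by its F test. Genes were called at a fold change of 1.5 and p under 0.05, adjusted (Benjamini-Hochberg over 18956 genes) or not. Log2 CPM used a prior count of 2. Ratios of counts (0.5 added) were compared by two-sided exact permutation tests. The fit was tested on simulated counts. Libraries of a group differed by more than sampling noise in every pair, so that none was taken for a duplicate. All 9 genes are named; of 6 lists of partner genes, up to 4 called genes per list, by p; and up to 3 genes most alike in pattern. Some genes chosen by this rule are not reported here. Members and lists were chosen with earlier results of these data known. Positions and exon lengths came from GENCODE M21 (GRCm38), promoters from RefSeq (GRCm38.p6).

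Alternatives were no filter on low counts, DESeq2 size factors, the Wald test of DESeq2 1.42.0, a block for the replicate number, a fit to the compared groups alone, marker scores as covariates, leaving out each ovary, and 1 count added in the ratios. Gene lengths behind the deposited FPKM were added as an alternative after the data were seen. Replicate numbers came from the titles, and ovaries with the same number came from different animals. Their deviations from the group means correlated between -0.185 and 0.153 in 6 pairs, so the numbers were not taken to pair the ovaries.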

Additional observations from a re-analysis of the deposited data

Results flagged for a closer look

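The level of Dnmt3a in Control was flagged because 1 of the 4 ovaries lay far from the other three. Control ovary 31 was at 212.8 CPM and the others at 183.5, 185.7 and 187.4 CPM, and the gap to the nearest ovary was 0.867 of the whole range, above the critical value of Dixon's test for 4 samples. Chance flags about 1 in 20 groups, and the other groups hold only 3 ovaries each. Without that ovary, the log2 fold change of Dnmt3a in Aged compared with Control was -0.88 (edgeR adjusted p = 0.145).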

How the results depend on the processing

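In Aged compared with Control, 17 alternatives were run for each gene. Dnmt1, Uhrf1 and Dnmt3l stayed called in 14 of them, leave-one-out fits included, Dnmt3b in 9 and Tet1 in 4. The exceptions for Dnmt1, Uhrf1 and Dnmt3l were the replicate block and both marker scores, which called 0 of the 9 genes at adjusted p each (5 in the report). These fits called few genes of any kind, 80, 6 and 125 of the 18956 tested (0.422%, 0.0317% and 0.659%), against 2096 in the report's fit. Only the compared groups in the fit called 3, and 1440 of all tested genes. At unadjusted p, 2 were called with the oocyte score and 5 with the cell division score (7 in the report). Calls among all tested genes rose from 3456 to 4041 (oocyte) and 4203 (cell division). Of the 48 partners, 7 in the report, 4 were called without the filter on low counts, 1 with the block and 0 with either score. Without the filter, 1670 of all tested genes were called at adjusted p. In Aged+CF compared with Aged, DESeq2 called 2 of the 9 and 2 partners at adjusted p, against 441 of all 18956 tested genes. Either score left 0 of 3 at unadjusted p, while calls among all tested genes rose from 1509 to 2533 (oocyte) and 2706 (cell division). In Aged+CF compared with Control, DESeq2 called 2 of the 9 and 4 partners, against 528 of all 18956 tested genes. The compared groups alone called 1 and 5, against 487 of all tested genes. The replicate block left 1 of 3 at unadjusted p, where 1311 of all tested genes were called (1457 in the report). The block fit treats as pairs numbers that the check did not show to pair the ovaries, and it uses up residual degrees of freedom.

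Leaving out each ovary gave 3 to 7 of the 9 genes at adjusted p in Aged compared with Control (3 without Control 31, Control 32 or Aged 33), 4 to 8 at unadjusted p (4 without Aged 33 or Aged 34) and 4 to 9 partners (4 without Control 32, Control 34 or Aged 31). The same fits called 1081 to 3112 of all tested genes at adjusted p and 3041 to 4282 at unadjusted p. The ranges in Aged+CF compared with Aged were 0 to 1 at adjusted p (1 without Aged 34) and 1 to 4 at unadjusted p (1 without Aged 34 or Aged+CF 34). All tested genes ran from 1 to 556 called at adjusted p and from 1170 to 2360 at unadjusted p. In Aged+CF compared with Control, the ranges at adjusted p were 0 to 1 of the 9 genes (1 without Aged 34) and 0 to 4 partners (4 without Aged 34). All tested genes called there at adjusted p ran from 7 to 348.

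Directions turned for Dnmt3a in Aged compared with Control with the oocyte score (0.65) and the cell division score (0.29), and in Aged+CF compared with Control with the replicate block (0.26), the oocyte score (0.75) and the cell division score (0.52). Zfp57 in Aged+CF compared with Aged was at 0.12 with the block. Tet2 in the same comparison was near 0 throughout, at -0.00063 with DESeq2 size factors, -0.0059 with the compared groups alone, -0.055 with the oocyte score and -0.14 to 0.21 in leave-one-out fits. The log2 ratio of Dnmt3l to Dnmt3a ran from -0.98 to 0.0057 in Aged compared with Control (highest without Aged 31) and from -0.96 to 0.020 in Aged+CF compared with Aged (highest without Aged 34). In Aged+CF compared with Control, Tet1 to Tet2 ran from -0.26 to 0.049 and Tet3 to Tet2 from -0.067 to 0.17. The cause of these changes was not tested. No gene rested on so few reads as Dnmt3l, with 16 to 71 per ovary. With 3 or 4 ovaries per group, differences inside the printed intervals could not be resolved in the fit to all ovaries.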
